A study of Mus musculus with 28 samples.

Results

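Genes named Tex (testis expressed) and Spata (spermatogenesis associated) were followed in mouse testes that lack PRDM9 or HOP2. They were taken by name from the gene table of the mRNA libraries, as every symbol made of Tex or Spata, a number and an optional suffix, with Tex11, Tex12 and Spata22 left out. This gave 59 genes of 34839 in the table. Testis mRNA came from 2 Prdm9 KO libraries, 2 Hop2 KO libraries and 1 wild-type library, all of strain C57BL/6 per the labels. The wild-type library is labelled adult, and no age is given for the knockouts. Hop2 is the older name of Psmc3ip, and the labels do not give the deleted exons of either gene. An additional testis library of Prdm9 K/K mice, whose PRDM9 lacks the KRAB domain, mapped meiotic DNA breaks by SSDS, a sequencing method for the single-stranded DNA that DMC1 binds at breaks. Whether the replicates of a genotype were separate animals is not in the labels. The p-values therefore refer to the spread from library to library, part of which may be technical, and the lone wild-type library was assumed to vary like the knockouts.

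The names say where these genes were found and not what they do. Some code for parts of the spermatid, such as the acrosome, the neck that joins head and tail, the flagellum and the mitochondrial sheath. Others act earlier, in spermatogonia and in the first stages of meiosis, and others again code for membrane traffic, ribosome assembly or signalling proteins of many tissues. PRDM9 marks the sites of meiotic breaks in mice and HOP2 helps DMC1 to repair them, and male germ cells without either protein stop in meiotic prophase, before haploid spermatids form. A testis in this state is called arrested below.

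Values are given in the authors' rescaled TPM, an abundance per transcript length whose read depth is unknown. The columns sum to 873316 and 825459 for Prdm9 KO, 896480 and 953598 for Hop2 KO, and 1622660 for wild type. Psmc3ip measured 3.51 and 5.06 in Hop2 KO testes, 22.8 and 26.4 in Prdm9 KO testes and 197 in wild-type testis, whereas Prdm9 measured 4.73 and 5.93 in Prdm9 KO testes, 10.7 and 15.03 in Hop2 KO testes and 6.20 in wild-type testis. Of the markers of cell types, 18 of 18 spermatid genes and 14 of 14 genes switched on at pachytene fell in each knockout. Of all genes tested, 39.4% fell in Prdm9 KO and 39.5% in Hop2 KO. Among these markers 8 spermatid and 4 pachytene genes were under 1 in every knockout library. They passed the filter on low values through wild type alone, so their falls were fixed in advance. Summed values of the full lists were 67.3 to 108 in the knockouts against 135024 in wild type for spermatids, and 249.8 to 295.1 against 16016 for pachytene. Early meiotic genes summed to between 421 and 451 in the knockouts and 427 in wild type. Among 12 spermatogonial markers 9 rose in each knockout, while Id4 fell in both and Gfra1 fell in Hop2 KO. Of all genes tested, 34.6% rose in Prdm9 KO and 35.0% in Hop2 KO. Sertoli and Leydig cell sums were also above wild type. In whole testis a smaller share of a cell type and less RNA per cell cannot be told apart.

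A gene was called present before the arrest when all 4 knockout libraries reached 1 and 25% of the wild-type value, and absent from arrested testes when wild type reached 1 and no knockout library did. By these limits 12 of the 59 genes were present (20.3%), 34 were absent (57.6%) and 13 lay between (22.0%). Over the 18714 genes that reached 1 in at least 1 library, the present share was 60.5%, the absent share 18.7% and the share between 20.8%. Every Tex and Spata gene reached 1 in wild type, and the same number, 25, did so in each knockout library. The classes use the measured values and are a description with no test. Those values are from whole testis, where Sertoli and Leydig cell sums were above wild type in the knockouts. The name present before the arrest therefore gives no timing in germ cells, and the part of other cells in this class was not tested.

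The limits ran through gaps between members, although other limits moved some genes, as given at the end. As a percentage of wild type, the lowest knockout value was 35.1% for Tex14, 36.1% for Tex261 and 50.5% for Tex10, just inside the present class. Just outside it were Tex101 at 17.7%, Tex9 at 12.9% and Spata2l at 9.40%. The highest knockout value was 0.903 for Spata18, 0.673 for Spata16 and 0.663 for Spata20, just inside the absent class, and 2.59 for Spata17, 2.95 for Spata4 and 3.40 for Spata9, just outside it.

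**Figure D1:**
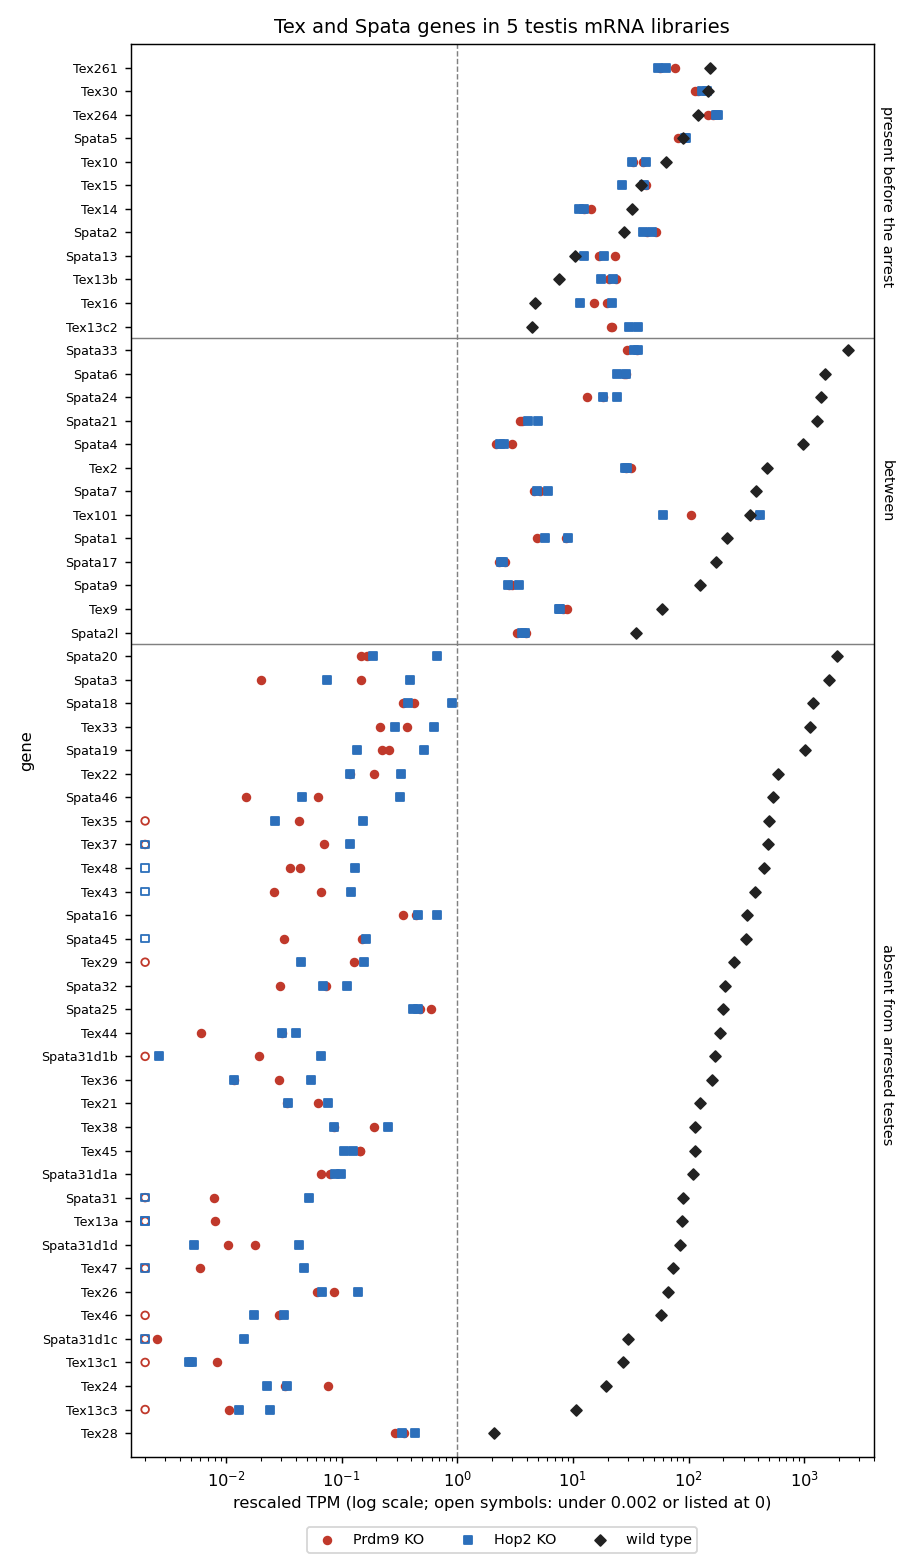
Rescaled TPM (log scale) of the 59 genes in each library, with Prdm9 KO as circles, Hop2 KO as squares and wild type as diamonds, in the 3 classes and ordered by the wild-type value. In the absent class all knockout symbols lie left of the dashed line at 1 and the wild-type diamonds right of it, up to 1917 for Spata20.

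The starts of the genes differed by class in sequence, which the sorting did not use. Promoters of 300 bases, 250 before to 50 after the annotated start (RefSeq, build GRCm38.p6), were at hand for 51 of the 59 genes. The median number of CpG dinucleotides was 22 in 10 present genes, 17 in 11 genes between and 4 in 30 absent genes, beside 19 over 11538 genes that were tested. The median was also 4 over all 1776 genes of the absent class with a promoter, so few CpGs are a feature of that class as a whole. GC content had medians of 65.7%, 60.3% and 50.8% in the present, between and absent members.

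The following promoters show this range, with CG in capitals. Tex30 (chr1:44102392-44102691, minus strand, 38 CpGs) is the most CpG-rich of the present genes. Spata7 (chr12:98627892-98628191, plus strand, 17 CpGs) stands for the genes between and is a gene whose main transcript differed between knockout and wild type. Spata46 (chr1:170308569-170308868, plus strand, 4 CpGs) is at the median of the absent genes, and Spata18 (chr5:73651130-73651429, plus strand, 30 CpGs) is their exception.
Tex30: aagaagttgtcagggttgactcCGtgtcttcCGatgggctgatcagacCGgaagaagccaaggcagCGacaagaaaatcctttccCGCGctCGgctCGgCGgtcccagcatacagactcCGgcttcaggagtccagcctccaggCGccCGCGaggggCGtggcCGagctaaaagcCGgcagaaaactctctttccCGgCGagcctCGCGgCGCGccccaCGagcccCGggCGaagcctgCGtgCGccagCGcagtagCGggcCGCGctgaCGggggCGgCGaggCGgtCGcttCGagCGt
Spata7: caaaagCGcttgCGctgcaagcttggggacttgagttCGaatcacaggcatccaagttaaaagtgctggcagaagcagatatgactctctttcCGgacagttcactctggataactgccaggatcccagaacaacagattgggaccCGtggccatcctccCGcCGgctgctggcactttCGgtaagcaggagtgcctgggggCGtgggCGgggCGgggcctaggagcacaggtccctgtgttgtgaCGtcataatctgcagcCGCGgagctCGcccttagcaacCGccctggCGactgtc
Spata46: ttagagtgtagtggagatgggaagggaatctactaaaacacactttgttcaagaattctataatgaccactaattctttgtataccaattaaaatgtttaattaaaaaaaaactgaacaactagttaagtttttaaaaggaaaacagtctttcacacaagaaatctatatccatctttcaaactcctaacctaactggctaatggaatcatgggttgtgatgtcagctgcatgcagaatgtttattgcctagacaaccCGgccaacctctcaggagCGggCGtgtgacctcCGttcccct
Spata18: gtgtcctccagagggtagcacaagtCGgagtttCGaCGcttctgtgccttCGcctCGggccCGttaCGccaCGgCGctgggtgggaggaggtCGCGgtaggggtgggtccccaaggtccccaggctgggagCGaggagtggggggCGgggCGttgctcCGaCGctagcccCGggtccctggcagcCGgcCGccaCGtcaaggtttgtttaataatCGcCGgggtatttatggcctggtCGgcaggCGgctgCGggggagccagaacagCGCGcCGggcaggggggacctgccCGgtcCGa

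Meiotic breaks at these starts were read from Prdm9 K/K testis, another genotype than the mRNA libraries. In mice without PRDM9 activity breaks are known to fall at promoters and other sites with trimethylated H3K4. The authors' list has 17731 peaks with a median of 79 fragments, from 1 library. A peak lay within 1 kb of the start of 9 of 10 present genes (90%), 9 of 11 genes between (81.8%) and 2 of 30 absent genes (6.67%). Of all 11538 tested genes with a promoter 62.7% had one, and by class over all genes the shares were 67.5% (present), 61.0% (between) and 16.5% (absent). In each of these 20 members the start itself lay inside the peak. The listed start was over 1 kb from the outer end of the gene's RefSeq span in 9 of the 51 members. Measured from that outer end, a choice made after seeing the data, a peak lay within 1 kb in 10 of 10 present genes, 8 of 11 genes between and 2 of 30 absent genes.

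Peak depth varied widely among the genes. Tex30 had 798 fragments in its peak and Spata5 771, whereas Tex261 had 33. Among genes between, Spata1 had 970 and Tex101 56. The 2 absent genes with a peak were Spata16, with 35 fragments, and Spata18, with 38, both under the median peak. Among present and between genes, those without a peak at the listed start were Tex16, Spata21 and Spata9. For Spata21 the nearest peak lay 9170 bases away and for Spata9 22876 bases away, and their promoters hold 3 and 1 CpGs. The listed start of Tex16 lies inside the gene, 196754 bases from the outer end of its span (chromosome X, 111896766 to 112127326), and a peak with 167 fragments lay 308 bases from that outer end. The 0 CpGs counted for Tex16 belong to the inner start. In Tex9 the listed start lay inside a peak, while the outer end of its span lay 18187 bases from the nearest one.

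**Figure D2:**
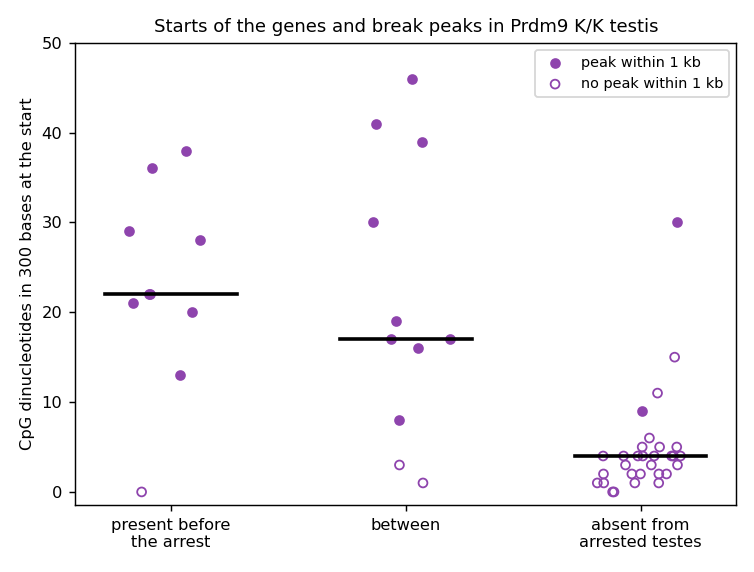
CpG dinucleotides in the 300 bases at the listed start of each gene (points; bars, medians) by class, filled where a break peak of Prdm9 K/K testis lay within 1 kb of it. Filled points are 9 of 10 present genes, 9 of 11 between and 2 of 30 absent.

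Short motifs were counted on both strands of the same windows. A site of the MYB family (the hexamers CAACGG and also TAACGG, with CAACTG and likewise TAACTG), to which the meiotic factor A-MYB belongs, was found in 43.3% of the absent genes, 36.4% of those between and 20% of the present ones, beside 26.0% of promoters of tested genes. The RFX-type motif GTTGCC occurred in 16.7%, 27.3% and 0% of absent, between and present members, beside 13.5% of tested genes. The full cAMP response element TGACGTCA was found in Spata7 alone among the 51, beside 2.99% of tested genes. Over all genes of the absent, between and present classes, a MYB site was found in 32.1%, 28.7% and 24.02% of promoters. GTTGCC was found in 18.4%, 17.3% and 11.6% of them. The order of the MYB shares was therefore that of the classes as a whole. The GTTGCC share of the absent members was below that of their class. With so few members in a class a single promoter moves the shares of members by several percentage points.

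Against wild type, 48 of 58 members fell in Prdm9 KO and 48 fell in Hop2 KO (limma, Benjamini-Hochberg adjusted p under 0.05 over 16261 genes), beside 39.4% and 39.5% of all genes tested. Of the same 58, 4 rose in Prdm9 KO and 5 in Hop2 KO, beside 34.6% and 35.0% of all genes. The median log2 change of the members was -6.31 in Prdm9 KO testes and -6.12 in Hop2 KO testes, and that of all genes -0.08 and -0.06. Both comparisons share the wild-type library. The 33 absent genes that were tested passed the filter on low values through wild type alone, so their 33 falls follow from the sorting, and Tex28 was too low to be tested. Genes called higher were 46.8% of all calls in Prdm9 KO and 47.0% in Hop2 KO. With quantile normalization these shares were 61.8% and 61.5%, and with columns rescaled to a common sum 66.0% and 64.0%.

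Genes first named in a screen of mouse spermatogonia, with their relatives, split by gene. Of 6 measured from this list, chosen by hand, Tex14, Tex15, Tex16 and Tex13b were present and Tex13a and Tex13c1 absent. The relatives Tex13c2, present, and Tex13c3, absent, were not on the list. Tex14, which builds the bridges that keep dividing germ cells joined, was 12.4 and 14.2 in Prdm9 KO testes, 11.3 and 12.5 in Hop2 KO testes and 32.4 in wild-type testis. All 4 knockout libraries lay below wild type, and Tex14 fell in both (log2 -1.23, SE 0.16, limma adjusted p = 0.00513 in Prdm9 KO; -1.37, SE 0.16, adjusted p = 0.00374 in Hop2 KO). With columns rescaled to a common sum the fall in Prdm9 KO was not called (log2 -0.33, limma adjusted p = 0.174).

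Tex15, needed to silence transposons and to repair meiotic breaks in mouse male germ cells, was 39.4 and 42.8 in Prdm9 KO testes, 41.1 and 26.6 in Hop2 KO testes and 38.6 in wild-type testis. Wild type lay within the spread of the knockout values, and no change passed (log2 0.09, limma adjusted p = 0.806 in Prdm9 KO; -0.21, adjusted p = 0.549 in Hop2 KO).

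X-linked members went in both directions. Tex13b (chromosome X, 140808307 to 140813433) was 20.6 and 23.7 in Prdm9 KO testes, 17.5 and 22.0 in Hop2 KO testes and 7.53 in wild-type testis. It rose in both knockouts, by 1.44 on the log2 scale (SE 0.21, limma adjusted p = 0.00656) in Prdm9 KO and 1.27 (SE 0.21, adjusted p = 0.0089) in Hop2 KO. Tex16 was 19.6 and 15.3 in Prdm9 KO testes, 21.7 and 11.4 in Hop2 KO testes and 4.69 in wild-type testis, a rise with a wider error (log2 1.69, SE 0.44, limma adjusted p = 0.0332; 1.56, SE 0.44, adjusted p = 0.0404). The lowest knockout value, 11.4, was still above wild type. The call was lost in both comparisons when either Prdm9 KO library was left out (adjusted p = 0.0857 to 0.124), and in Hop2 KO also without its replicate 1 (0.0523). It was lost in Prdm9 KO and Hop2 KO with a pseudocount of 5 (limma adjusted p = 0.0526 and 0.0635) and with no filter on low values (0.0952 and 0.1096).

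Their relatives Tex13a, Tex13c1 and Tex13c3 on the same chromosome were absent. Tex13a (X, 138208158 to 138209580) was 0.00812 in Prdm9 KO replicate 1 and listed at 0 in the other 3 knockout libraries, against 88.1 in wild type. Tex13c1 was at most 0.00840 in the knockouts and 27.1 in wild type, and Tex13c3 at most 0.0241 and 10.6. Tex13c2, by contrast, was present at 22.0 and 21.2 in Prdm9 KO testes, 36.3 and 30.3 in Hop2 KO testes and 4.43 in wild-type testis. It had the largest rise of all members, 2.05 on the log2 scale (SE 0.16, limma adjusted p = 0.0015) in Prdm9 KO and 2.65 (SE 0.16, adjusted p = 0.000783) in Hop2 KO. The Tex13c genes resemble each other, so reads can be split between them and these values are uncertain.

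In all, 6 of the members lie on the X chromosome, among them Tex28, which was not tested. Tex13c2 had no position in the annotation used and is not counted among them. Of tested genes with a position, 4.87% lie on X. Spermatogonial markers, of which 9 of 12 rose in each knockout, summed to 692 to 822 in the arrested testes and 226 in wild type, beside the rises of Tex13b, Tex16 and Tex13c2. The part of spermatogonia in these rises was not tested.

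Members listed by hand as broadly expressed gave most of the present class. Of 14, 7 were present, 6 lay between and Spata20 was absent. Over all genes that reached 1 in a library, 60.5% were present, 20.8% between and 18.7% absent. The listed members were thus not present more often than genes at large. Tex264, a receptor that sends endoplasmic reticulum to autophagy, was 162 and 148 in Prdm9 KO testes, 172 and 181 in Hop2 KO testes and 121 in wild-type testis. All knockout values exceeded wild type, and the rise passed in Hop2 KO (log2 0.54, SE 0.11, limma adjusted p = 0.0165) but not in Prdm9 KO (0.35, SE 0.11, adjusted p = 0.0518). The difference between the 2 knockouts was not called (log2 -0.19, unadjusted p = 0.171, limma adjusted p = 0.972). Leaving out either Hop2 KO library ended the call (adjusted p = 0.0629 and 0.0774). In Prdm9 KO the rise passed with quantile normalization (log2 1.36, limma adjusted p = 0.000488) and with columns rescaled to a common sum (1.28, adjusted p = 0.000894).

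Spata2, which links the deubiquitinase CYLD to the linear ubiquitin ligase complex, was 51.9 and 43.8 in Prdm9 KO testes, 48.2 and 40.5 in Hop2 KO testes and 27.4 in wild-type testis. All knockout values lay above the single wild-type value, and the rise passed in both (log2 0.78, SE 0.18, limma adjusted p = 0.0233; 0.67, SE 0.18, adjusted p = 0.0342). Of all genes tested, 34.6% were called higher in Prdm9 KO and 35.0% in Hop2 KO. The call was lost in Prdm9 KO without its replicate 1 (adjusted p = 0.0841), and in Hop2 KO without any 1 of the 4 knockout libraries (0.0540 to 0.106). With no filter on low values it was lost for both (0.0615 for Prdm9 KO, 0.0821 for Hop2 KO). Spata13 was 23.1 and 16.6 in Prdm9 KO testes, 18.4 and 12.4 in Hop2 KO testes and 10.5 in wild-type testis. Its values lay above wild type without passing the test on the deposited scale (log2 0.84, limma adjusted p = 0.0956; 0.48, adjusted p = 0.269). Spata13 passed in Prdm9 KO and Hop2 KO with quantile normalization (log2 1.28, limma adjusted p = 0.0179; 0.92, adjusted p = 0.0479) and with rescaled columns (1.69, adjusted p = 0.0148; 1.21, adjusted p = 0.0379).

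Tex30 and Spata5 kept close to wild type. Tex30 was 114 and 120 in Prdm9 KO testes, 144 and 131 in Hop2 KO testes and 146 in wild-type testis (log2 -0.32, limma adjusted p = 0.0665; -0.09, adjusted p = 0.499). Spata5, an ATPase of ribosome maturation, was 91.2 and 81.0 in Prdm9 KO testes, 94.4 and 93.5 in Hop2 KO testes and 89.9 in wild-type testis (log2 -0.06, adjusted p = 0.633; 0.06, adjusted p = 0.646). Neither gene passed on the deposited scale.

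Tex261, a relative of a yeast protein of the early secretory pathway, was 75.8 and 57.2 in Prdm9 KO testes, 64.3 and 54.9 in Hop2 KO testes and 152 in wild-type testis. It fell in both knockouts (log2 -1.20, SE 0.23, limma adjusted p = 0.0137; -1.34, SE 0.23, adjusted p = 0.00998). Tex10, part of a nuclear complex that acts in ribosome assembly, was 40.0 and 33.2 in Prdm9 KO testes, 43.0 and 32.3 in Hop2 KO testes and 63.9 in wild-type testis. It fell close to the threshold (log2 -0.79, SE 0.24, limma adjusted p = 0.0453; -0.76, SE 0.24, adjusted p = 0.0497). Without either Prdm9 KO library it was not called in Prdm9 KO (adjusted p = 0.0839 and 0.146), and in Hop2 KO it was not called without either Prdm9 KO library or Hop2 KO replicate 2 (0.0856 to 0.109). With a pseudocount of 5 or with no filter on low values Tex10 was called in neither knockout (0.0507 to 0.121), nor in Hop2 KO without the intensity trend (0.0546).

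The scale bears on this class, since the wild-type column has the largest sum. With columns rescaled to a common sum the median log2 change of all genes was 0.77 in Prdm9 KO and 0.68 in Hop2 KO, against -0.08 and -0.06 on the deposited scale, and with quantile normalization 0.58 and 0.59. On both of these scales the falls of Tex261 and Tex10 no longer passed, and with rescaled columns neither did that of Tex14 in Prdm9 KO, while Tex10 turned to 0.12 and 0.032. Spata5, Tex30, Tex264 and Spata13 were called higher in both knockouts on both scales, and the members called higher numbered 8 in each knockout. Of all 16038 genes tested with rescaled columns, 8284 were called higher in Prdm9 KO and 7963 in Hop2 KO. With quantile normalization these numbers were 8044 and 8015 of 16261. The 12 present genes had a median log2 change of 0.22 in Prdm9 KO and 0.27 in Hop2 KO on the deposited scale, and their knockout means ran from 38.9% of wild type for Tex14 to 619% for Tex13c2.

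**Figure D3:**
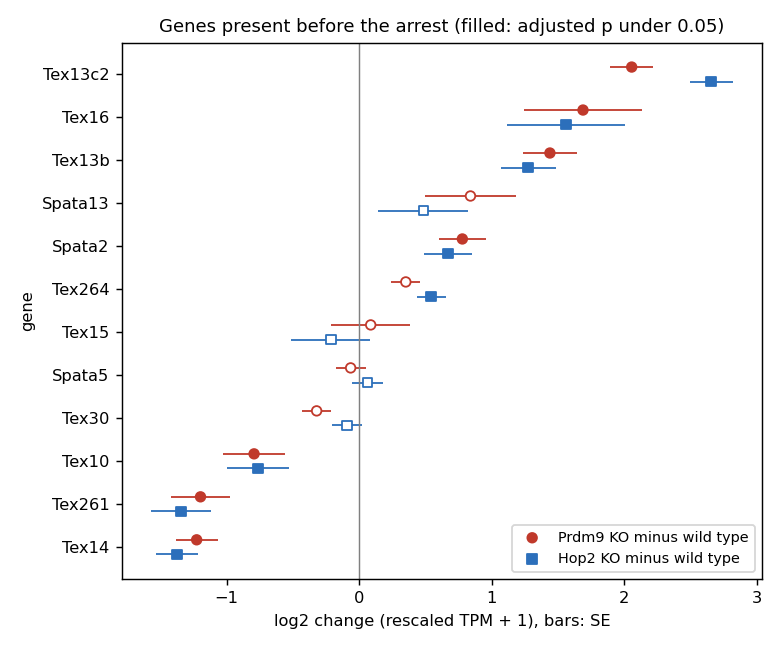
Log2 change (rescaled TPM + 1) of the 12 genes present before the arrest, in Prdm9 KO (circles) and Hop2 KO (squares) relative to wild type, with bars for the SE and filled symbols for a limma adjusted p under 0.05. Tex13c2, Tex16, Tex13b and Spata2 are filled to the right of 0 in both knockouts, and Tex10, Tex261 and Tex14 to the left.

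Genes between kept a small residue of a high wild-type level. Of the 13, 12 fell in both knockouts, a count that the limits of the class largely set, and the median knockout level was 1.82% of wild type. Spata33, which holds calcineurin at sperm mitochondria in mouse, was 29.2 and 35.5 in Prdm9 KO testes, 33.8 and 36.7 in Hop2 KO testes and 2397 in wild-type testis, the highest wild-type value of all members. Spata6, needed for the connecting piece of the sperm neck in mouse, was 28.7 and 27.6 in Prdm9 KO testes, 28.74 and 24.003 in Hop2 KO testes and 1503 in wild-type testis. The knockout means were 1.41% of wild type for Spata33 (log2 -6.17 for Prdm9 KO and -6.05 for Hop2 KO) and 1.82% for Spata6 (log2 -5.69 and -5.79).

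Spata4 was 2.14 and 2.95 in Prdm9 KO testes, 2.54 and 2.35 in Hop2 KO testes and 985 in wild-type testis, or 0.253% of wild type, the lowest share of the genes between. Spata21 was 3.63 and 3.47 in Prdm9 KO testes, 4.06 and 4.997 in Hop2 KO testes and 1287 in wild-type testis (0.314%). Spata24 was 13.1 and 18.3 in Prdm9 KO testes, 18.1 and 24.2 in Hop2 KO testes and 1410 in wild-type testis. The residue of Spata24 was 1.31% of wild type, so these 3 genes of similar wild-type level differed in what remained.

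Other members between are on the list of broadly expressed genes. Tex2, a lipid-binding protein of the endoplasmic reticulum, was 29.0 and 31.8 in Prdm9 KO testes, 29.3 and 28.2 in Hop2 KO testes and 477 in wild-type testis (6.19% of wild type). Spata7, known from the connecting cilium of photoreceptors, was 4.62 and 5.23 in Prdm9 KO testes, 4.89 and 6.05 in Hop2 KO testes and 381 in wild-type testis (1.37%). The highest residues among those that fell were those of Tex9, at 13.8% of 58.4, and Spata2l, at 10.5% of 34.8, 2 genes with the lowest wild-type values of the class. Spata1 (wild type 216), Spata17 (173) and Spata9 (125) stood at 3.29%, 1.41% and 2.38% of wild type.

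Tex101 did not follow its class. This surface protein of germ cells is needed for the sperm protein ADAM3 in mouse. It was 106 and 396 in Prdm9 KO testes, 60.3 and 414 in Hop2 KO testes and 340 in wild-type testis. Replicate 2 of each knockout exceeded wild type and replicate 1 of each lay below it, so that no change could be called (log2 -0.73, SE 1.53, limma adjusted p = 0.69 in Prdm9 KO; -1.10, SE 1.53, adjusted p = 0.552 in Hop2 KO). Summed Leydig cell markers were 35746 and 48878 in Prdm9 KO testes, 26004 and 73273 in Hop2 KO testes and 5884 in wild-type testis, likewise higher in replicate 2 of each knockout. Sertoli cell and spermatid sums were also higher in replicate 2 of each knockout, so this pattern was not particular to Leydig cells. Sums for spermatogonia, macrophages, myoid cells and endothelium were lower there. Early meiotic and pachytene sums were higher in replicate 2 for Prdm9 KO alone. The part of Leydig or other cells in the Tex101 values was not tested.

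Members known from the sperm head, all but Tex101, were absent from arrested testes (8 of 9). Spata16, needed to form the acrosome, was 0.343 and 0.444 in Prdm9 KO testes, 0.455 and 0.673 in Hop2 KO testes and 320 in wild-type testis. Spata46, a nuclear envelope protein that shapes the head in mouse, was 0.0150 and 0.0619 in Prdm9 KO testes, 0.0453 and 0.320 in Hop2 KO testes and 532 in wild-type testis. Tex38, which works with a palmitoyl transferase in spermatids, was at most 0.253 in the knockouts and 115 in wild type.

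The Spata31 family forms 2 groups on chromosome 13. Spata31d1a, Spata31d1b and Spata31d1d lie between 59700083 and 59731752, and Spata31 and Spata31d1c between 64917406 and 65038004. Their wild-type values were 110, 168, 85.0, 89.2 and 30.1 in this order, and no knockout library exceeded 0.0981. These paralogs are near-identical in parts, so the split of reads between them is uncertain, while all were low in the arrested testes.

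Members of the neck, tail and mitochondria were absent in 10 of 13 cases, with Spata6, Spata33 and Spata4 between. Spata18, a regulator of mitochondrial quality, was 0.338 and 0.422 in Prdm9 KO testes, 0.373 and 0.903 in Hop2 KO testes and 1182 in wild-type testis. Spata19, needed for the mitochondrial sheath in mouse, was 0.256 and 0.225 in Prdm9 KO testes, 0.136 and 0.513 in Hop2 KO testes and 1010 in wild-type testis. Spata3 was 0.0199 and 0.146 in Prdm9 KO testes, 0.0755 and 0.388 in Hop2 KO testes and 1639 in wild-type testis. In each of these genes Hop2 KO replicate 2 held the highest knockout value.

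Tex33 was 0.214 and 0.365 in Prdm9 KO testes, 0.287 and 0.630 in Hop2 KO testes and 1117 in wild-type testis. Tex37 was listed at 0 in replicate 1 of both knockouts, with 0.0698 in Prdm9 KO replicate 2, 0.118 in Hop2 KO replicate 2 and 485 in wild type. Tex43 (wild type 379), Spata45 (314), Spata32 (206), Spata25 (198) and Tex36 (158) had a highest knockout value of 0.120, 0.162, 0.111, 0.587 and 0.0546. Of the 10 absent genes of this list Spata25 had its highest knockout value in Prdm9 KO and the other 9 in Hop2 KO replicate 2. Spata25 stood at 0.472 and 0.587 in Prdm9 KO, against 0.455 and 0.411 in Hop2 KO.

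Spata20, a thioredoxin-domain protein, had the highest wild-type value of the absent class. It was 0.166 and 0.148 in Prdm9 KO testes, 0.188 and 0.663 in Hop2 KO testes and 1917 in wild-type testis, so the mean of the knockouts was 0.0152% of wild type. The log2 change, -10.70 in Prdm9 KO and -10.41 in Hop2 KO, was the largest of the members tested and is given with no test, since the limits of the class fixed its direction. The change on this scale is bounded by the added 1 and understates the ratio. Absent genes outside the role lists include Tex22 (wild type 591), Tex35 (497) and Tex48 (450), with knockout values of at most 0.324, 0.153 and 0.131. At the low end Tex28 was 0.291 and 0.345 in Prdm9 KO testes, 0.432 and 0.334 in Hop2 KO testes and 2.06 in wild-type testis, a knockout mean of 16.98% of wild type.

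The absent genes left traces that followed the library. Summed over the 34, they were 2.88 and 4.24 in Prdm9 KO testes, 3.20 and 7.20 in Hop2 KO testes and 12612 in wild-type testis, which gives 0.0228% and 0.0336% of wild type in Prdm9 KO and 0.0254% and 0.0571% in Hop2 KO. The highest knockout value was that of Hop2 KO replicate 2 in 28 of the 34 genes and the lowest that of Prdm9 KO replicate 1 in 22. Genes tied at 0 were counted for the library listed first. These counts were not made over all genes of the absent class, so they may be a property of the libraries. The values lie near the floor, with medians of 0.0133 for the lowest and 0.125 for the highest knockout value, and read depth is unknown. The spermatid markers summed to 67.5 and 79.3 in Prdm9 KO and 67.3 and 108 in Hop2 KO, also highest in Hop2 KO replicate 2, and their part in these traces was not tested. Of the 34 genes, 10 and 1 were listed at 0 in Prdm9 KO replicates 1 and 2, and 8 and 1 in Hop2 KO replicates 1 and 2, and none was at 0 in all 4.

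**Figure D4:**
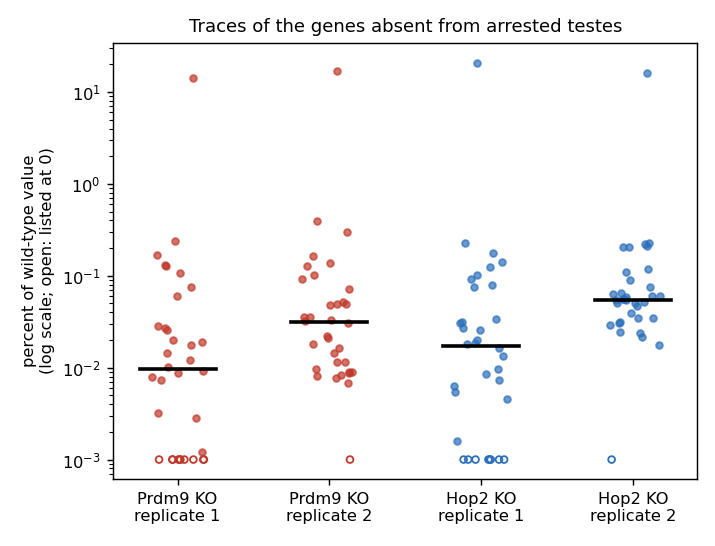
Value of each of the 34 absent genes in each knockout library as a percentage of wild type (log scale; open symbols at the bottom are listed at 0; bars, medians). The medians were 0.00970% and 0.0317% in Prdm9 KO replicates 1 and 2 and 0.0172% and 0.0551% in Hop2 KO replicates 1 and 2, and the single point above 10% in each library is Tex28.

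Prdm9 KO and Hop2 KO were compared directly, as mutants that both stop in prophase. Of 25 members tested in a fit of the 4 knockout libraries, 0 were called, where 0.0139% of 14358 genes were called higher in Prdm9 KO and 0 lower. At an unadjusted p under 0.05 limma gave 1 member and 445 of all genes. That member was Tex13c2, whose values above were lower in Prdm9 KO (log2 -0.60, SE 0.14, unadjusted p = 0.00754, limma adjusted p = 0.972). In the authors' deposited table of their own gene test, whose compared groups are not named, its p was 0.00588 and its q 1. The next members by unadjusted p were Tex30 (log2 -0.23), Spata24 (-0.41), Spata21 (-0.28) and Tex264 (-0.19), with the limma adjusted p at 0.972 for each. Means of these genes were lower in Prdm9 KO. The median log2 difference of the 25 was -0.01, and that of all genes -0.03. With 2 libraries a group, a p above the threshold is no sign of equal levels.

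Within genes, the deposited transcript table showed which transcript carried the value. Of the 59 genes, 43 have more than 1 transcript, 253 in all. Among 18 genes that reached 5 in both kinds of testis, the transcript of largest value differed between all 4 knockout libraries and wild type in Spata7, Tex261 and Spata6. Such estimates divide shared reads between similar transcripts by a model, and no test was made. The same count was not made over all genes, so whether such changes are particular to these members is not known.

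In Spata7 the change was almost complete. Transcript ENSMUST00000101146 held 13.5% and 12.5% of the gene value in Prdm9 KO testes, 12.4% and 26.9% in Hop2 KO testes and 87.1% in wild-type testis. ENSMUST00000048402 held 77.8% and 77.4% in Prdm9 KO testes, 78.0% and 63.0% in Hop2 KO testes and 11.5% in wild-type testis. In values ENSMUST00000101146 was 0.625 and 0.654 in Prdm9 KO testes, 0.608 and 1.63 in Hop2 KO testes and 331 in wild-type testis. The residue of Spata7 in arrested testes was therefore mostly ENSMUST00000048402, at 3.60 and 4.05 in Prdm9 KO testes, 3.82 and 3.81 in Hop2 KO testes and 43.8 in wild-type testis.

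In Tex261 the transcripts went in different directions. ENSMUST00000014892 was 50.8 and 38.2 in Prdm9 KO testes, 54.6 and 43.2 in Hop2 KO testes and 35.8 in wild-type testis, with all knockout values above wild type. ENSMUST00000138192 was 23.5 and 17.7 in Prdm9 KO testes, 9.44 and 11.02 in Hop2 KO testes and 65.2 in wild-type testis. ENSMUST00000137773 was 1.18 and 0.766 in Prdm9 KO testes, 0 and 0.268 in Hop2 KO testes and 41.9 in wild-type testis. The gene value of Tex261 was thus lower in the knockouts while its main transcript there was not.

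In Spata6 the order changed with smaller differences in share. ENSMUST00000038868 was 9.24 and 8.60 in Prdm9 KO testes, 10.5 and 9.90 in Hop2 KO testes and 278 in wild-type testis, and ENSMUST00000149834 was 5.32 and 7.00 in Prdm9 KO testes, 5.20 and 5.30 in Hop2 KO testes and 460 in wild-type testis. A further transcript, ENSMUST00000143879, was at most 0.0389 in the knockouts and 110 in wild type. Spata9 did not reach 5 in the knockouts, but its largest transcript there was ENSMUST00000223744 (1.43 and 1.38 in Prdm9 KO testes, 1.56 and 1.695 in Hop2 KO testes, 8.20 in wild type), in place of ENSMUST00000022081 (1.10 and 1.32, 1.00 and 1.56, against 73.7).

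**Figure D5:**
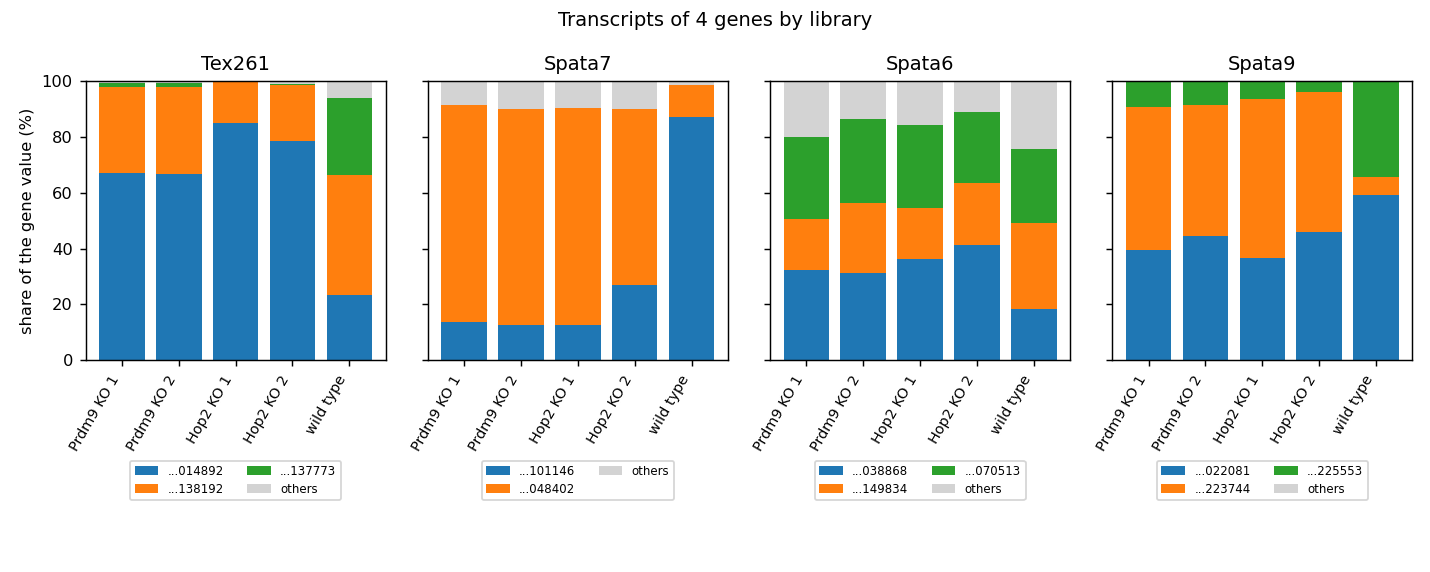
Share of the gene value (%) held by each transcript of Tex261, Spata7, Spata6 and Spata9 in the 5 libraries, labelled by the last digits of the transcript identifier. In Spata7 the transcript drawn at the bottom holds 12.4% to 26.9% in the knockouts and 87.1% in wild type.

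Single transcripts could be absent where the gene was not. In 12 of the 25 genes kept in arrested testes, 17 transcripts were under 1 in all knockout libraries and at 5 or more in wild type. In Tex30, a present gene, ENSMUST00000152239 was 0.532 and 0.592 in Prdm9 KO testes, 0.471 and 0.551 in Hop2 KO testes and 24.02 in wild-type testis. In Tex264, also present, ENSMUST00000191205 was 0.110 and 0.154 in Prdm9 KO testes, 0.186 and 0.0681 in Hop2 KO testes and 7.61 in wild-type testis. The other 10 genes were Tex261 among the present and Spata6, Spata17, Spata9, Spata1, Tex9, Tex2, Spata21, Spata33 and Tex101 among those between. In genes between that fell, a transcript under 1 can follow from the fall of the whole gene. In Spata21, ENSMUST00000181353 held 12.3% to 19.8% of the gene value in the knockouts and 0.726% in wild type. In Spata6, ENSMUST00000143879 held at most 0.162% in the knockouts and 7.33% in wild type. The same count over all genes was not made.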

How the data were processed

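Testis mRNA was measured in 2 Prdm9 KO, 2 Hop2 KO and 1 wild-type library, and meiotic breaks in 1 Prdm9 K/K library; the other 22 of 28 samples were not used here. The mRNA values are a signal that the authors called TPM, per the file headers, for genes and for transcripts. Plain TPM would sum to 1000000 per column, which these columns do not, by factors the sources used here do not state. The submitters' processing notes name kallisto, sleuth and CASAVA with GRCm38 and mm10 for mRNA, and MACS2 2.1.0.20150420 for the break peaks. A table of p-values and q-values from a gene test was deposited too.

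Tests used limma 3.58.1 (R 4.3.3, trend option) on log2(value + 1), for genes with a mean of at least 1, with Benjamini-Hochberg adjustment over all genes tested and a threshold of 0.05. Comparisons with wild type used a fit of 5 libraries, and Prdm9 KO against Hop2 KO from a fit of the 4 knockout libraries. Changes of low genes are understated on this scale. The fit was tested on simulated data. The simulated wild type was given the spread of the knockouts, so the simulation cannot check that assumption for the lone wild-type library. Promoters and positions are RefSeq GRCm38.p6.

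The members and the gene lists were chosen with earlier results of these data known. Genes were named by rule: those of the role lists, those of highest value in each class (12 absent, 12 present, 8 between), those that rose in both knockouts, those beside each class limit, the 5 of smallest p between knockouts, and those with a break peak at their start or a changed main transcript. Alternatives covered the pseudocount, the filter, the scale, the trend, the class limits, the peak distance, and leaving out each knockout library.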

Additional observations from a re-analysis of the deposited data

How the results depend on the processing

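The number of members called lower than wild type stayed between 45 and 48 in Prdm9 KO and between 46 and 48 in Hop2 KO in every setting run. Of the falls reported in each knockout, 33 were of absent genes and 12 of genes between. The sorting fixed the first and the class limits largely set the second, so this narrow range is no sign of robust calls. Over all genes those called lower numbered 6412 in Prdm9 KO and 6419 in Hop2 KO as reported, and 4269 and 4474 with rescaled columns. The number of members called higher depended on the setting, as did that of all genes given above. In Prdm9 KO it was 4 as reported, 2 with no filter on low values, 8 with quantile normalization, 8 with columns rescaled to a common sum, and 2 to 4 when single libraries were left out. In Hop2 KO it was 5 as reported, 3 with no filter, 8 with quantile normalization, 8 with rescaled columns and 2 to 3 with single libraries left out. Some changes turned their direction with the scale, among them the called fall of Tex10. In Prdm9 KO the log2 change was 0.84 (quantile) and 0.86 (rescaled) for Spata5, 0.74 and 0.61 for Tex30, 0.47 and 0.20 for Tex101, and 0.12 (rescaled) for Tex10. In Hop2 KO it was 0.86 and 0.71 for Tex30, 0.31 and 0.57 for Tex15, and 0.032 (rescaled) for Tex10. With single libraries left out, the log2 change ran from -0.15 to 0.020 for Spata5 and from -1.68 to 0.22 for Tex101 in Prdm9 KO, and from -2.48 to 0.28 for Tex101 and from -0.52 to 0.089 for Tex15 in Hop2 KO. Beyond the scale's own shift of all genes, the cause was not tested. Of the classes, Tex101 became present with rescaled columns, at a limit of 10% of wild type or without Hop2 KO replicate 1. Tex14 and Tex261 moved to between when 50% of wild type was asked for, Tex9 became present at 10%, and a limit of 0.5 moved Spata16, Spata18, Spata19, Spata20, Spata25 and Tex33 to between. With the replicate number as a block, 0 members were called between Prdm9 KO and Hop2 KO, as in every other setting, and 3 members against 1 had an unadjusted p under 0.05. The labels do not say that the numbers pair libraries, although same-numbered deviations correlated at 0.413 over 14358 genes. Peak counts were the same at 0.5 and 2 kb; with the 50% of peaks that hold more fragments, an alternative chosen after seeing the data, the absent class had 0 of 30 genes with a peak in place of 2. Measured from the outer end of the gene span, also chosen after seeing the data, 20 of 51 members had a peak, as from the listed starts. The planned choice of peaks by score was not run, since the peak list holds none. Depth is unknown, so no counting error is given, and 1 wild-type library carries both comparisons.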
